A study of Arabidopsis thaliana with 36 samples.

Results

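The 36 genes described here are nuclear loci of Arabidopsis that encode subunits and associated proteins of photosystem I (13 genes, with the thylakoid curvature protein CURT1B counted here), photosystem II (13 genes, with the assembly and repair factor PSB27), the electron carriers between and after the photosystems (7 genes) and the chloroplast ATP synthase (3 genes). They were listed by locus and function and not by any measured value, and all 36 had a called transcript, among 11536 loci with a called transcript in any expression table. Of 9872 loci with a called splicing region, 9 belonged to the 36. RNA depleted of ribosomal RNA was sequenced with reads of 150 bp from whole seedlings in 36 libraries, 3 in each of 12 groups. The groups combine 6 genotypes with red light or darkness: the triple mutant swap1-1sfps-2rrc1-3, the double mutants swap1-1sfps-2, swap1-1rrc1-3 and sfps-2rrc1-3, the single mutant swap1-1, and the Col-0 wild type (WT). SWAP1, SFPS and RRC1 are splicing factors, and the labels name the Col-0 background for swap1-1. All seedlings were set to germinate with white light, grew for 4 days in darkness, and then received 3 h of red light (7 µmol m-2 s-1) or stayed dark for the same time. Expression was compared in swap1 and WT, and splicing in all 6 genotypes.

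Photosystem II splits water on the lumenal side of the thylakoid membrane, where an oxygen-evolving complex shields the manganese cluster, and passes electrons through cytochrome b6f and plastocyanin to photosystem I. Photosystem I hands them to ferredoxin, ferredoxin-NADP reductase makes NADPH, and the proton gradient drives the ATP synthase. The core proteins of these complexes are made in the chloroplast and the surrounding subunits are imported from nuclear genes. In seedlings grown in darkness these nuclear genes are held low and plastids lack thylakoids, and the first hours of light, sensed in red by phytochrome, start their expression.

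The files hold the authors' results for whole groups and no value of a single library, so neither depth nor overlap between libraries can be given, and the labels do not say that the 3 libraries of a group were grown apart. The p-values thus cover the spread among these libraries alone, and that spread may be technical. A level below is a group mean on the authors' normalised count scale, solved from base mean and fold change and brought to the scale of the WT tables. It is given per kilobase of spliced transcript (per kb) wherever genes are compared. With whole seedlings, fewer cells of a type and less RNA per cell cannot be told apart. SWAP1 was checked by its exon bins, which are read relative to the whole gene and so do not show its total level. In all 6 comparisons in which the swap1 allele sets the groups apart, 2 exon bins of SWAP1 were lower and others higher, between -1.58 and 1.82 log2 units in the authors' deposited tables. An exon bin of RRC1 was lower by 0.68 to 0.89 log2 units in the authors' deposited tables where rrc1 was among the differences, and no bin of SFPS was called. Where rrc1 alone was the difference, the RRC1 exon bin was at -0.70 in darkness and -0.84 in red light in the authors' deposited tables. Of 11 seed storage and late embryo genes, 0 rose and 6 fell in swap1 against WT in red light, 0 rose and 3 fell in the dark, and 2 (swap1) and 3 (WT) rose with light in the authors' deposited tables. Whether leftover seed tissue has a part in the genotype values below was not tested.

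All 36 genes were higher in red light than in darkness in swap1 and in WT. Among all transcripts tested, 15.1% were called higher in swap1 and 13.3% in WT. A call needed an adjusted p up to 0.05 and a log2 fold change beyond 0.585 in either direction. The median log2 fold change over the 36 genes was 2.27 in swap1 and 1.81 in WT, against 1.39 in swap1 and 1.3 in WT over the 2914 transcripts that rose with light in both genotypes. In WT the median was 2.13 for photosystem I, 1.71 for photosystem II, 1.76 for the carriers and 1.37 for the ATP synthase.

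**Figure D1:**
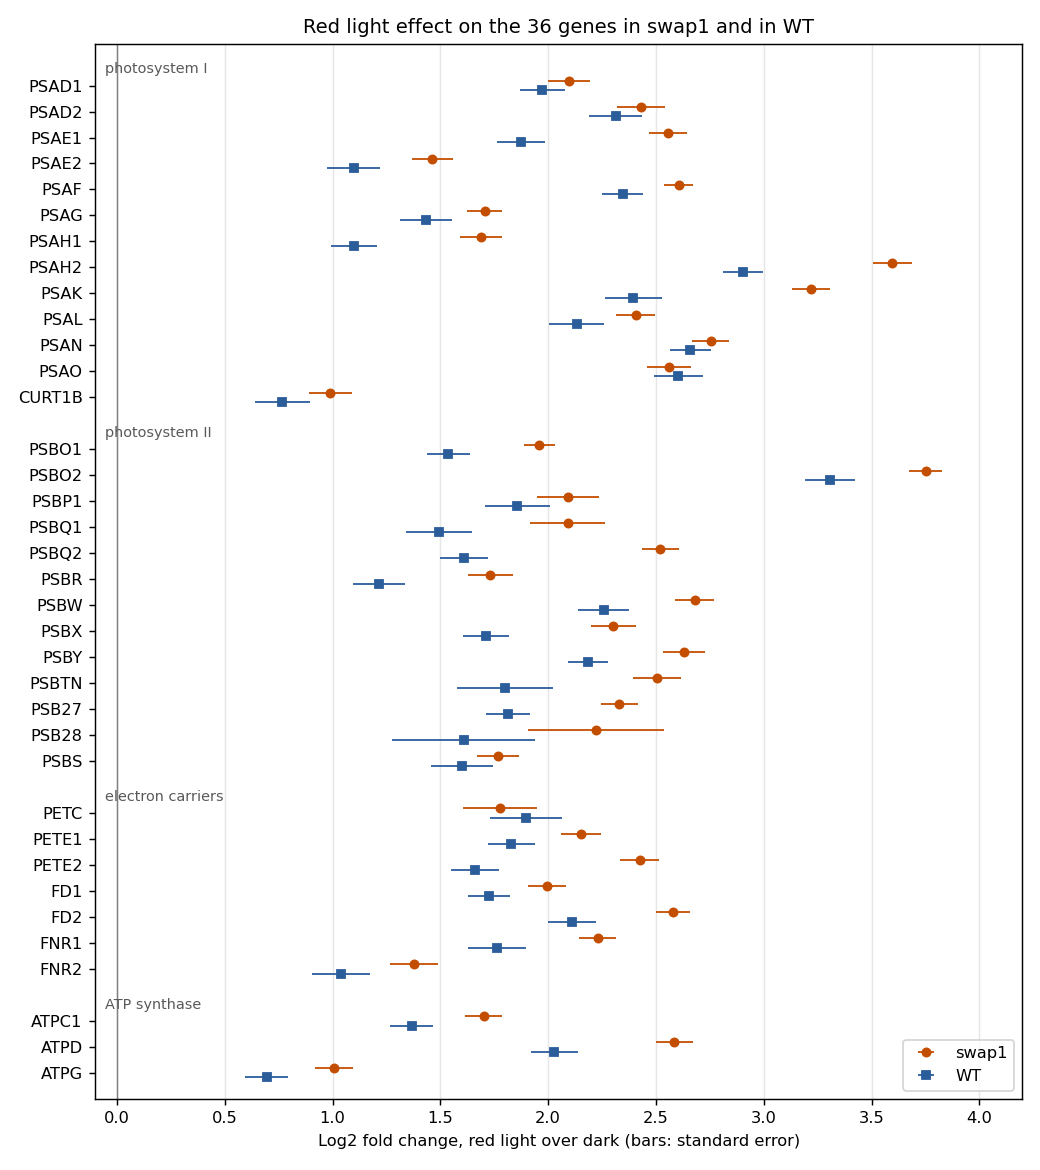
Log2 fold change of red light over dark for each of the 36 genes, ordered by complex, in swap1 (circles) and WT (squares), with bars for the authors' standard error. All points lie above 0, with PSBO2 the highest in swap1 and in WT, ATPG the lowest in WT and CURT1B the lowest in swap1.

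In photosystem I, the response ran over a wide range. PSAH2, a subunit on the side where the mobile antenna docks during state transitions, had the largest WT response, with a level of 161131 per kb in WT red light and 21527 per kb in WT darkness, a log2 fold change of 2.90 ± 0.09 (SE) in the authors' deposited table. Its paralogue PSAH1 stood at 35414 per kb in WT red light and 16517 per kb in WT darkness, a log2 fold change of 1.10 ± 0.11 in the authors' deposited table. PSAH2 thus made up 82.0% of the pair's level in WT red light and 56.6% in WT darkness, and 82.2% and 55.1% in the same order in swap1. The smallest response in this class belonged to CURT1B, the curvature protein, which was once named PSAP and counted with photosystem I, at 0.99 ± 0.10 in swap1 and 0.77 ± 0.13 in WT in the authors' deposited tables. The stromal subunits that receive ferredoxin also differed within pairs. PSAE1 responded by 1.87 ± 0.11 and PSAE2 by 1.10 ± 0.12 in WT in the authors' deposited table, so that PSAE2 held 31.2% of the pair's level in WT red light and 43.7% in WT darkness. PSAD1 and PSAD2 responded by 1.97 ± 0.11 and 2.31 ± 0.12 in WT in the authors' deposited table, and PSAD2 held 38.6% of the pair in WT red light and 33.2% in WT darkness.

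In photosystem II, PSBO2 had the largest response of all 36 genes. PSBO proteins stabilise the manganese cluster of the oxygen-evolving complex. PSBO2 stood at 43153 per kb in swap1 red light and 3206 per kb in swap1 darkness, and at 64918 per kb in WT red light and 6559 per kb in WT darkness. The log2 fold changes in the authors' deposited tables were 3.75 ± 0.08 in swap1 and 3.31 ± 0.11 in WT, a 9.90-fold rise in WT. PSBO1 was the more abundant paralogue in all 4 groups, with 121670 per kb in WT red light and 41943 per kb in WT darkness, and rose by 1.54 ± 0.10 in WT in the authors' deposited table. The share of PSBO2 in the pair was therefore 30.2% in swap1 red light and 11.1% in swap1 darkness, and 34.8% in WT red light and 13.5% in WT darkness. PSBR, a subunit of the oxygen-evolving side, had the highest level of all 36 genes, at 344828 per kb in WT red light and 148303 per kb in WT darkness, and the smallest WT response of photosystem II, at 1.22 ± 0.12 in the authors' deposited table.

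Among the carriers, FD2, the major leaf ferredoxin, had the largest WT response, with 150069 per kb in WT red light and 34757 per kb in WT darkness (2.11 ± 0.11 log2 units in the authors' deposited table). FD1, the minor leaf ferredoxin, rose by 1.73 ± 0.10 in WT in the authors' deposited table, and FD2 held 65.6% of the pair in WT red light and 59.4% in WT darkness. The plastocyanin genes PETE1 and PETE2 rose by 1.83 ± 0.11 and 1.66 ± 0.11 in WT in the authors' deposited table, and PETE2 held 84.7% of the pair in WT red light and 86.2% in WT darkness. The PETE1 transcript, AT1G76100.1, holds 0 bases found in no other transcript of its locus. The PETE2 share may thus depend on how reads shared by transcripts were counted, which is not given. In the ATP synthase, ATPD, the delta subunit, rose by 2.03 ± 0.11 in WT in the authors' deposited table, and ATPG, a subunit of the membrane stalk, by 0.69 ± 0.10, the smallest WT response of all 36 genes. Coding sequences of the 8 pairs were 77.7% to 88.1% identical, and the longest identical run between the transcripts of a pair was 17 to 35 bases, shorter than a read.

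**Figure D2:**
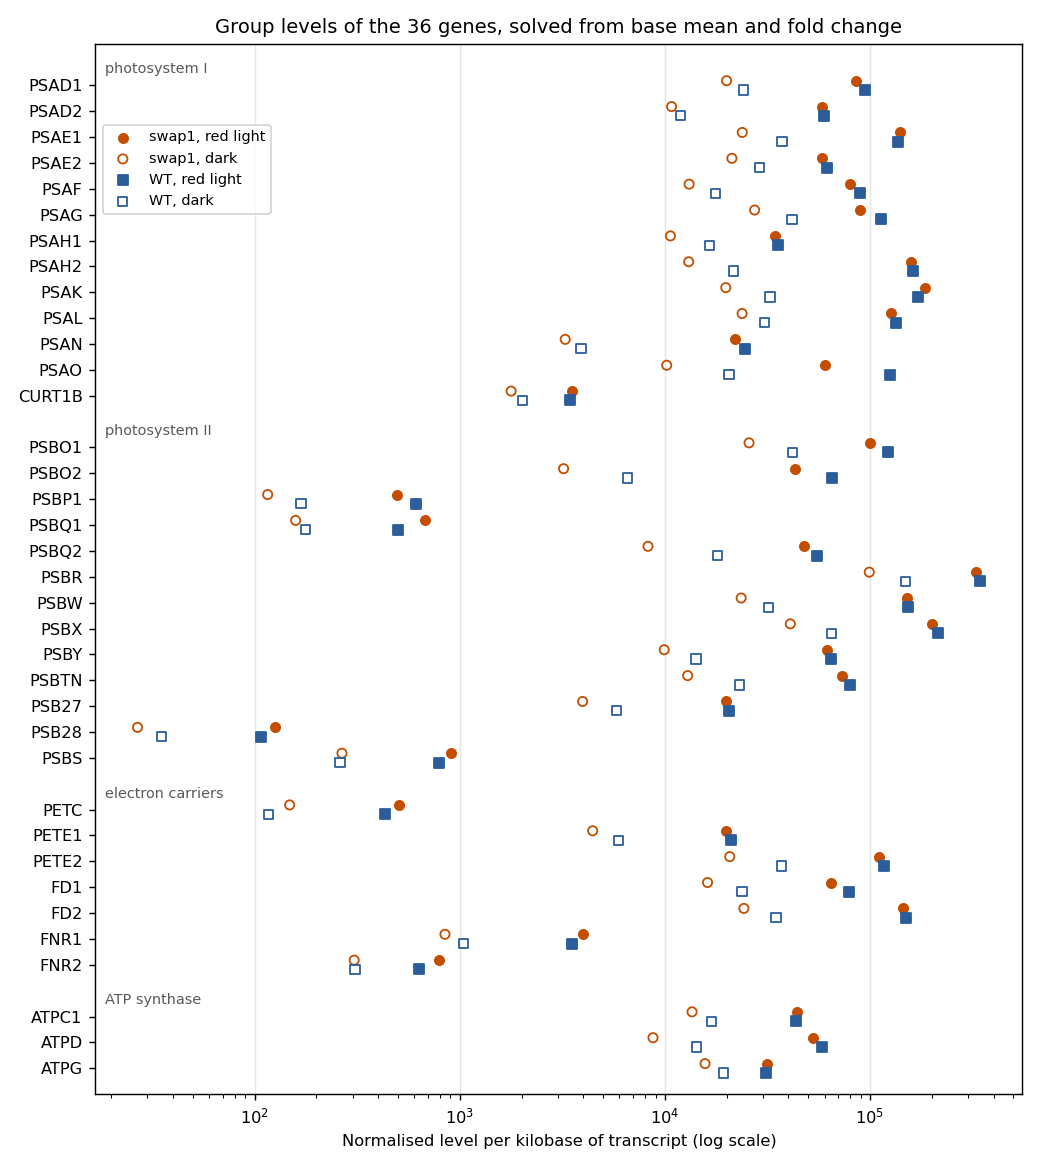
Level per kilobase of spliced transcript (log axis) of each of the 36 genes in swap1 red light, swap1 darkness, WT red light and WT darkness, without error bars because the files give no value of single libraries. In 28 genes the WT red light level before scaling by length lay between 17366 and 270345, and in the other 8 between 95.2 and 5324.

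The 8 genes at low levels were CURT1B, PSBP1, PSBQ1, PSB28, PSBS, PETC, FNR1 and FNR2. All 8 have 2 or more transcripts in the RefSeq annotation, which 5 of the other 28 genes also have. Their values stand for 1 transcript each, and some of these transcripts have few bases of their own. PSBQ1 (AT4G21280.2) holds 3 bases found in no other transcript of its locus, PSBP1 (AT1G06680.2) 4 and FNR1 (AT5G66190.1) 5. By the same count PSB28 (AT4G28660.2) holds 45, FNR2 (AT1G20020.1) 74 and CURT1B (AT2G46820.1) 189. For PSBS, the sensor of lumen acidity in photoprotection, and PETC, the Rieske protein of cytochrome b6f, the more abundant called transcripts AT1G44575.2 and AT4G03280.2 carry 466 and 91 bases that lie in an intron of another transcript. How reads shared by transcripts were counted is not given in the sources used here, and its part in these levels was not tested, so PSBQ1, FNR1 and FNR2 are not set against their paralogues.

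PETC is the only gene of the 36 with a transcript that fell in red light, where 11.2% of all transcripts fell in swap1 and 8.71% in WT: AT4G03280.1 fell by 0.69 ± 0.26 in swap1 and by 0.64 ± 0.26 in WT, while AT4G03280.2 rose by 1.78 ± 0.17 in swap1 and by 1.90 ± 0.17 in WT in the authors' deposited tables. FNR2, a leaf ferredoxin-NADP reductase, had 2 transcripts that rose. AT1G20020.1 rose by 1.38 ± 0.11 in swap1 and by 1.04 ± 0.14 in WT, and AT1G20020.3 by 1.34 ± 0.40 in swap1 and by 2.64 ± 0.47 in WT in the authors' deposited tables. AT1G20020.3 holds 3 bases found in no other transcript of the locus and had a base mean of 40.9 in swap1 and 28.2 in WT in the authors' deposited tables, and the difference between the transcripts was not tested.

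The window from 250 bases before to 50 bases after the RefSeq gene start was searched on both strands for 5 short motifs known from light-regulated or clock-regulated promoters. A G-box (CACGTG), which PIF and HY5 factors are known to bind, was found in 13 of the 36 windows (36.1%), against 7.68% of 27443 nuclear promoters. An I-box (GATAAG) was found in 18 (50%, against 14.6%). The PIF-binding E-box (CACATG) was found in 6 (16.7%, against 12.9%), the evening element core (AATATCT) in 6 (16.7%, against 11.5%) and the GT-1 box (GGTTAA) in 8 (22.2%, against 16.7%). In the 250 bases before the start alone, the G-box was found in 7 genes (19.4%, against 6.49%) and the I-box in 9 (25%, against 12.3%). The 150 bases before the start are shown for PSAH2, the gene of largest WT light response in photosystem I, and for PSBQ2 and PSAO, which were among the 3 genes lowest in swap1 relative to WT in darkness, as described below (RefSeq TAIR10.1, 5′ to 3′, motif matches in capitals).
PSAH2 (chr1:19454648-19454797, plus strand): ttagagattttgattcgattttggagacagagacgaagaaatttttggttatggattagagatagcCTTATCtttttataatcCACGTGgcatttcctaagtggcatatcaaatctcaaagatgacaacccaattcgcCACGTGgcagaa
PSBQ2 (chr4:2673244-2673393, minus strand): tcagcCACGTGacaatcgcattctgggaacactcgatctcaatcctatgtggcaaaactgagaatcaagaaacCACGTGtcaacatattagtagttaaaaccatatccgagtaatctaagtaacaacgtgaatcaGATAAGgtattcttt
PSAO (chr1:2641935-2642084, minus strand): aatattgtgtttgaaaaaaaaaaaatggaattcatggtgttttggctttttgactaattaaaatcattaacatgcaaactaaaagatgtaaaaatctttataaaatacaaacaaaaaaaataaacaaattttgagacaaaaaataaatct
PSAH2 has G-boxes that begin 67 and 12 bases before its start, and PSBQ2 has G-boxes at 145 and 77 bases. The 150 bases of PSAO hold none of the 5 motifs, but its whole window does, with an evening element core that begins 166 bases before the start and an I-box that does not lie wholly before the start.

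In darkness, 13 of the 36 genes were lower in swap1 than in WT and 0 were higher, where 7.4% of all transcripts tested were called lower and 6.12% higher. In red light 3 were lower and 0 higher, where 9.71% were called lower and 7.79% higher. PSAO and PSBO2 were lower in swap1 in red light and in darkness.

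**Figure D3:**
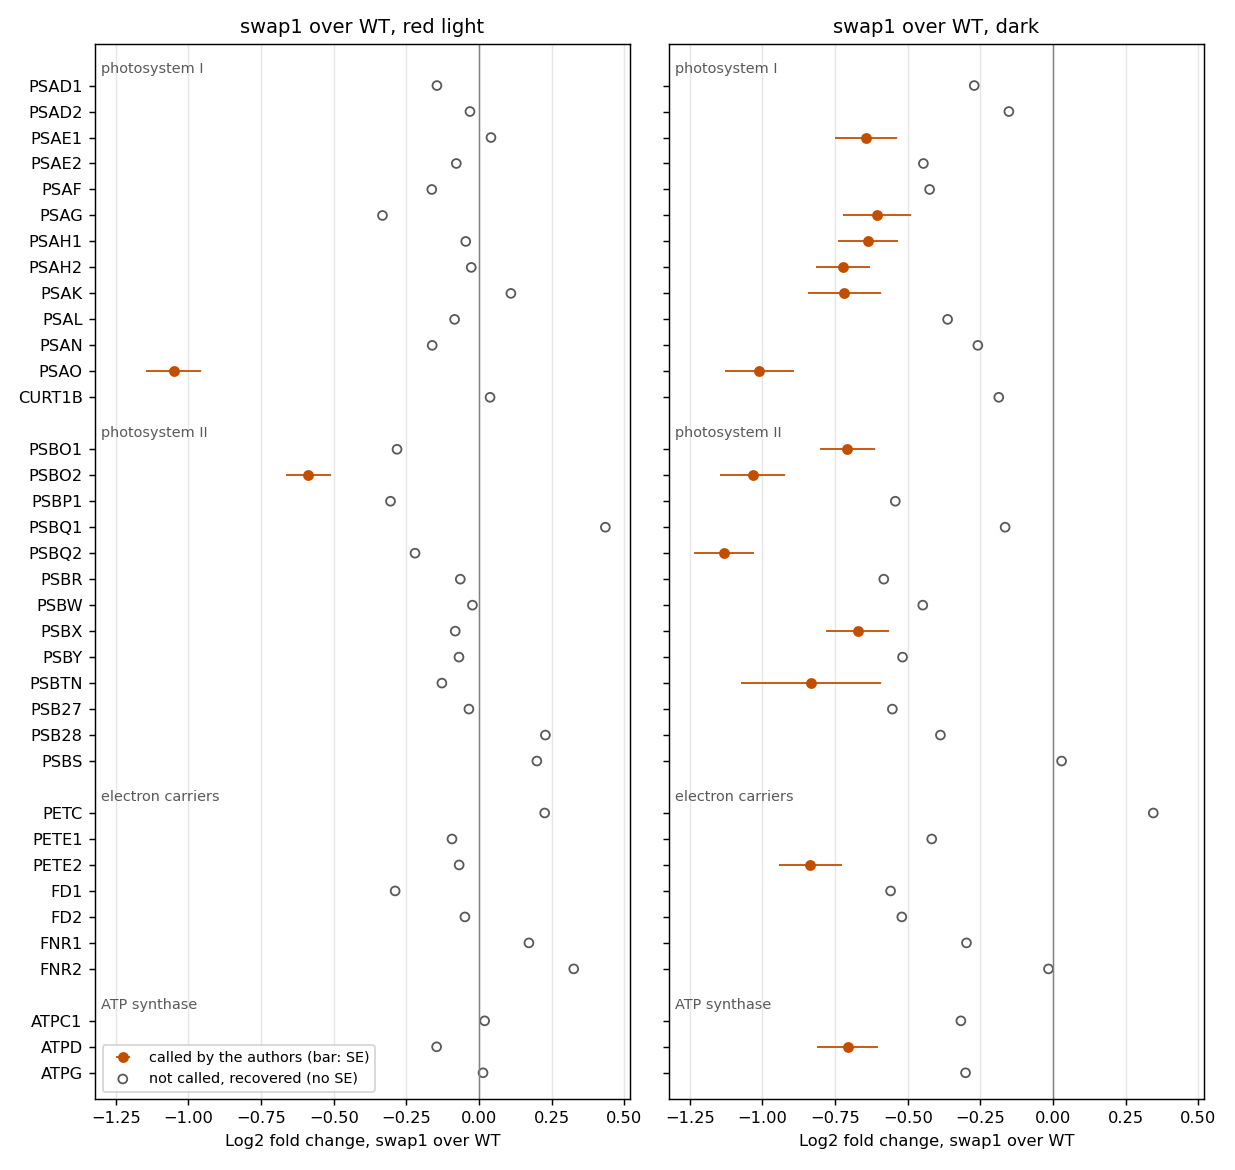
Log2 fold change of swap1 over WT for each of the 36 genes in red light (left) and in darkness (right). Each gene is shown by 1 transcript. Filled points with bars for the standard error were called by the authors for that transcript, open points were recovered from the light tables and have no error. PSBP1 is open in red light, because its called transcript, AT1G06680.1, is not the one shown. In darkness 34 of 36 points lie below 0, and in red light 25 of 36.

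PSBQ2, a subunit of the oxygen-evolving complex, had the largest difference in darkness, with 8266 per kb in swap1 and 18122 per kb in WT, 45.6% of the WT level. Its log2 fold change was -1.13 ± 0.10 (DESeq2 adjusted p = 4.70e-26) in the authors' deposited table. PSBO2 in darkness was at -1.03 ± 0.11 (DESeq2 adjusted p = 2.09e-18) and PSAO, a subunit on the state transition side of photosystem I, at -1.01 ± 0.12 (DESeq2 adjusted p = 3.66e-16) in the authors' deposited table. The other 10 genes called lower in darkness lay between -0.84 and -0.61 in the authors' deposited table. They were PSAE1, PSAG, PSAH1, PSAH2 and PSAK of photosystem I, PSBO1, PSBX and PSBTN of photosystem II, PETE2 and ATPD. PETE2, a plastocyanin gene, was at -0.84 ± 0.11, PSBO1 at -0.71 ± 0.09, ATPD at -0.71 ± 0.10 and PSAG, an antenna-side subunit of photosystem I, at -0.61 ± 0.12 in the authors' deposited table.

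PSAO kept the same size of difference in red light, with 60157 per kb in swap1 and 124802 per kb in WT. That is 48.3% of the WT level in red light beside 49.6% in darkness, and its log2 fold change in red light was -1.05 ± 0.10 (DESeq2 adjusted p = 3.64e-26) in the authors' deposited table. PSBO2 in red light stood at 43153 per kb in swap1 and 64918 per kb in WT, a log2 fold change of -0.59 ± 0.08 (DESeq2 adjusted p = 7.37e-13) in the authors' deposited table. The third call in red light was 1 transcript of PSBP1, another subunit of the oxygen-evolving complex: AT1G06680.1 had a group mean of 233 in swap1 and 464 in WT before scaling by length, a log2 fold change of -0.99 ± 0.15 in the authors' deposited table. The other transcript of PSBP1, AT1G06680.2, was not called between the genotypes.

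For genes not called, the value of swap1 over WT was recovered from the levels in the 2 light tables, after removal of an offset of 0.21 (darkness) and 0.20 (red light) log2 units between the tables. For 15 called values of the 36 genes the recovered and deposited values differed by at most 6.84e-04 log2 units, but a recovered value carries no error or test. In darkness 34 of the 36 genes were below 0, with a median of -0.52, against 64.8% and -0.17 over the 2914 transcripts that rose with light. Among the 266 of these transcripts with a base mean of at least 10000, the share was 72.9% and the median -0.24. PETC (0.35) and PSBS (0.03) were the exceptions, each measured by the intron-containing transcript named above. The median by complex in darkness was -0.45 for photosystem I, -0.55 for photosystem II, -0.42 for the carriers and -0.32 for the ATP synthase. In red light the median over the 36 genes was -0.07, against -0.06 over the 2914 transcripts.

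The difference of the light effects was tested directly, since the 2 light comparisons share no library, with a two-sided normal test on the deposited standard errors and Benjamini-Hochberg adjustment over 4679 transcripts called in both. The light effect was larger in swap1 than in WT for 19 of the 36 genes and smaller for 0, where 26.4% of the 4679 transcripts differed in either direction. Among the 2914 transcripts that rose with light in both genotypes 17.6% had a larger and 6.42% a smaller effect in swap1, and among the 266 with a base mean of at least 10000 these shares were 34.6% and 7.14%. The median difference was 0.42 log2 units over the 36 genes, 0.11 over the 2914 transcripts and 0.18 over the 266. This difference equals the swap1 effect in red light minus the swap1 effect in darkness, so it restates the values of the 4 groups already given.

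**Figure D4:**
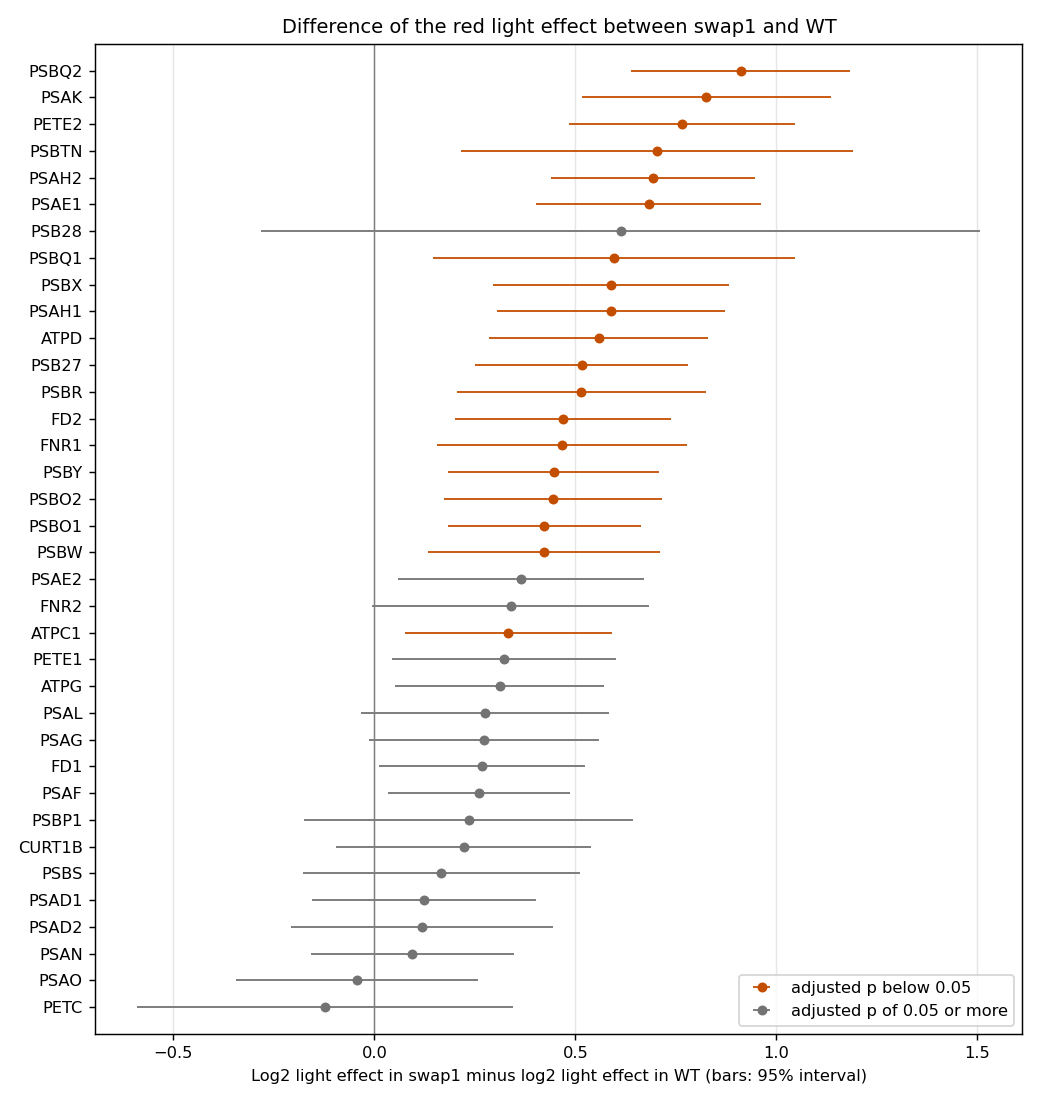
Log2 light effect in swap1 minus log2 light effect in WT for the 36 genes in order of size, with 95% intervals. The 19 genes in colour have an adjusted p below 0.05, from PSBQ2 at 0.91 to ATPC1 at 0.33, and only PSAO and PETC lie below 0.

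By complex, the 19 genes were 10 of 13 in photosystem II, 4 of 13 in photosystem I, 3 of 7 carriers and 2 of 3 ATP synthase subunits. PSBQ2 had the largest difference, 0.91 ± 0.14 (95% interval 0.64 to 1.18, adjusted p = 2.09e-09). It stood at 47430 per kb in swap1 red light and 8266 per kb in swap1 darkness, and at 55305 per kb in WT red light and 18122 per kb in WT darkness. PSAK, an antenna-side subunit of photosystem I, followed with 0.83 ± 0.16 (adjusted p = 3.40e-06), PETE2 with 0.77 ± 0.14 (adjusted p = 1.98e-06), PSBTN with 0.70 ± 0.25 (adjusted p = 0.0222), PSAH2 with 0.69 ± 0.13 (adjusted p = 1.83e-06) and PSAE1 with 0.68 ± 0.14 (adjusted p = 2.84e-05). In swap1 red light PSAK was at 108% of WT, PSAH2 at 98.2% and PSAE1 at 103%. In swap1 darkness PSAK was at 60.8% of WT, PSAH2 at 60.6% and PSAE1 at 64.0%.

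Of the paralogues, PSBO1 (0.42 ± 0.12) and PSBO2 (0.44 ± 0.14) each had a larger effect in swap1, as did PSAH1 (0.59 ± 0.14) and PSAH2. PSAE1 passed and PSAE2 did not (0.37 ± 0.16, adjusted p = 0.0665), and FD2 passed (0.47 ± 0.14) where FD1 did not (0.27 ± 0.13, adjusted p = 0.123). These pairs of values were not tested against each other. Neither PSAD gene passed, with intervals of -0.16 to 0.40 for PSAD1 and -0.21 to 0.44 for PSAD2. PSAO was at -0.04 with an interval of -0.34 to 0.26, so a difference of the size seen for PSBQ2 lies outside its interval. The same contrast can be taken from the swap1 effects in red light and darkness for the 2 genes called in each. It is not separate evidence. PSBO2 differed by 0.45 ± 0.14 (adjusted p = 0.0115) and PSAO by -0.04 ± 0.15 (adjusted p = 0.957), where 12.6% of 2170 transcripts differed.

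The authors called bins, pieces of an exon or intron whose reads are set against those of the gene, and junction regions. A junction region is judged by the share of reads that use a junction, with a change between 0 and 1 that carries no sign in the authors' tables. The bin FDR limit was 0.05 in the comparisons of swap1 and WT and 0.03 in those of the triple mutant. Counts of called genes are therefore not on the same threshold between these sets. Of the 36 genes, 23 have an intron in RefSeq, and 13 (36.1%) have a single exon, against 18.9% of 27444 nuclear protein-coding genes. Called regions were found in 9 genes: PSAE2, PSAH1, CURT1B, PSBO2, PSBQ1, PSBR, PSBY, FNR1 and FNR2. Over the whole series 9872 loci had a called region in any comparison, beside 22245 nuclear protein-coding loci with an intron. The 9872 were not limited to loci with an intron. Against WT, the triple mutant had 4 genes with a region in red light and 5 in darkness, where 29.5% and 23% of 22245 loci with an intron had one. In swap1 against WT there was 1 gene in red light and 2 in darkness, where 27.1% and 17.4% of loci had one. Between light and dark there were 3 genes in swap1 and 3 in WT (9.26% and 6.44% of loci). Where swap1 was the factor added to a double mutant, 2 genes in red light and 1 in darkness had a region (5.48% and 6.64% of loci), PSBY among them, which has no annotated intron. Where rrc1 was added there was 1 gene in red light and 0 in darkness (0.85% and 0.692%), and where sfps was added there were 0 in red light and 0 in darkness (0.836% and 1.1%).

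**Figure D5:**
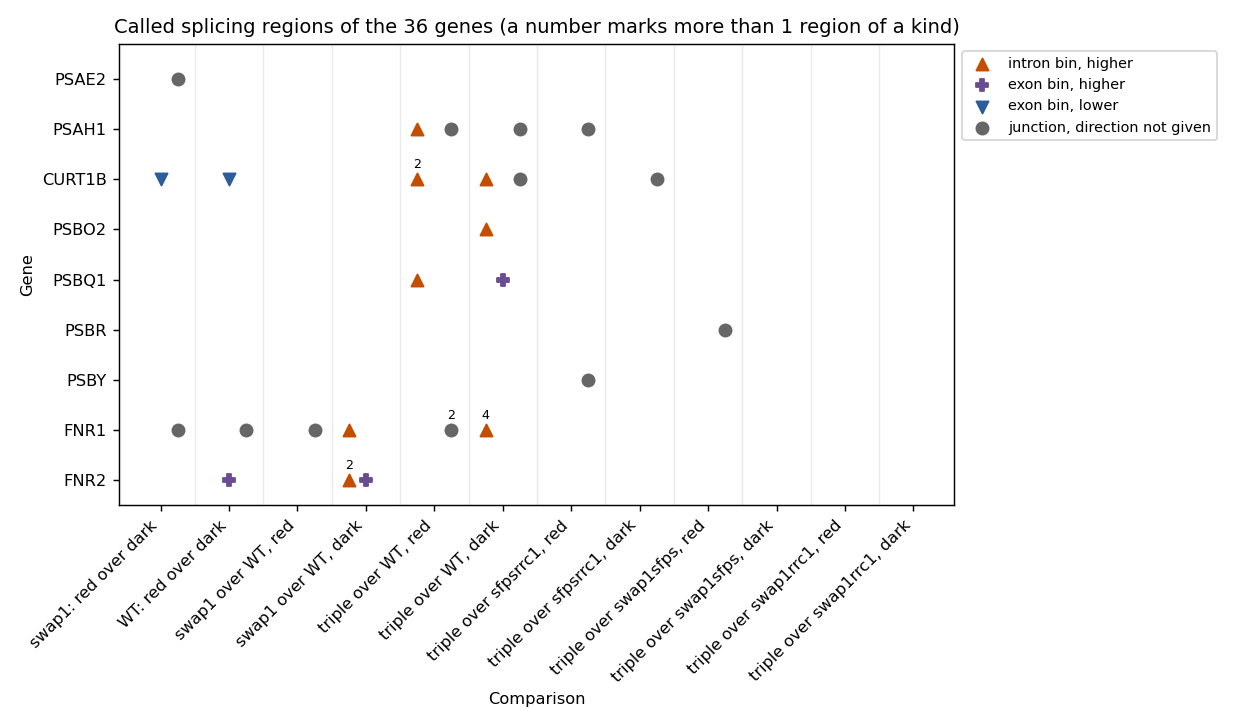
Called splicing regions of the 9 genes (rows) in the 12 comparisons (columns), each named with its numerator first. All intron bins called are higher, counting the 110 bases of the CURT1B 5′ UTR as exon, in the triple mutant or in swap1 against WT, and FNR1 and CURT1B have regions in the most comparisons.

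All 13 intron bins called in the 36 genes had higher coverage in a mutant than in WT: 4 in the triple mutant in red light, 6 in the triple mutant in darkness and 3 in swap1 in darkness. How many of all called intron bins were higher in these comparisons was not counted. Whether this direction is particular to the 36 genes is therefore not known. Bin values are read as mutant over WT, a direction that was not checked for the triple mutant. Intron 2 of 2 of PSBO2 had the largest change, 1.02 log2 units in the triple mutant in darkness (FDR 0.00598) in the authors' deposited table. It is 98 bases long with a GC content of 34.7%, and retaining it would end the PSBO2 reading frame after 654 coding bases, the stop included, against 996 when it is removed. It is shown with its first and last 2 bases in capitals (TAIR10.1).
PSBO2 intron 2 (chr3:18891470-18891567, minus strand): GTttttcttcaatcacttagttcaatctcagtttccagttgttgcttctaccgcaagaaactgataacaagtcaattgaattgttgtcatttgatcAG
Intron 1 of 5 of CURT1B (chromosome 2, 19243886 to 19243975) rose in the triple mutant, by 0.65 under red light (FDR 1.10e-18) and by 0.94 in darkness (FDR 4.78e-19), in the authors' deposited tables. Intron 1 of 2 of PSAH1 (chromosome 3, 5469067 to 5469284) rose by 0.62 in the triple mutant under red light (the authors' deposited table). In FNR1, a leaf ferredoxin-NADP reductase, 4 of 8 introns were higher in the triple mutant in darkness, by 0.69 to 0.78 log2 units, and intron 3 by 0.64 in swap1 in darkness in the authors' deposited tables. Of the 11 different retained introns that match a RefSeq intron in a coding part, 10 would end the reading frame early, and intron 1 of CURT1B would add 90 bases in frame.

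The pairs of neighbouring splice sites that 2 exon bins mark lie 3 bases apart and are shown with the alternative bases in capitals (TAIR10.1, plus strand).
PSBQ1 acceptor of intron 1 (chr4:11335062-11335124): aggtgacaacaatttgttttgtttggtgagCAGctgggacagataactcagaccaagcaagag
FNR2 donor of intron 2 (chr1:6943454-6943516): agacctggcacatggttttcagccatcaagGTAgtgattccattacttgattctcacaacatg
The bases at the PSBQ1 acceptor, kept in AT4G21280.2 and removed in AT4G21280.1, rose by 0.62 in the triple mutant in darkness (FDR 1.03e-06) in the authors' deposited table. The bases at the FNR2 donor are kept in AT1G20020.3, the transcript with the larger WT light response above, and rose by 0.82 with light in WT (FDR 0.00702) and by 0.785 in swap1 against WT in darkness (FDR 0.0426) in the authors' deposited tables. In swap1 against WT in darkness the other 95 bases of that intron also rose, by 0.62 (FDR 0.0381). Intron 4 of FNR2 rose by 0.60 there (FDR 0.00644, each from the authors' deposited table). Whether the 0.785 stands for use of the donor or for retention of the intron was not tested. A stretch of 110 bases in the 5′ UTR of CURT1B, kept in AT2G46820.1 and removed in AT2G46820.2, fell with light by 0.62 in swap1 (FDR 1.84e-13) and by 0.59 in WT (FDR 1.67e-09) in the authors' deposited tables.

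Apart from the exon-skipping junctions described below, 6 called junctions in genes with introns are absent from RefSeq. Each kept the annotated donor and used another acceptor, 5 of them 3 to 18 bases downstream. All 6 removed stretches begin with GT and end with AG. The acceptors are shown with the annotated and the called AG in capitals (TAIR10.1, 30 bases on either side of the annotated end of the intron). The 2 windows of FNR1 intron 7 are the same stretch with different capitals.
PSAH1 intron 2 (chr3:5468820-5468879, minus strand): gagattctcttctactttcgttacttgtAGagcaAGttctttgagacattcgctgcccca
PSBR intron 2 (chr1:29736451-29736510, plus strand): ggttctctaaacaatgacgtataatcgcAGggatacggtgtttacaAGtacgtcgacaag
FNR1 intron 5 (chr5:26451881-26451940, minus strand): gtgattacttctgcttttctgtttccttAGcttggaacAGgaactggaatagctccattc
FNR1 intron 7, called 3 bases downstream (chr5:26451563-26451622, minus strand): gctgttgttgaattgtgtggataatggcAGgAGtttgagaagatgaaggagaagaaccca
FNR1 intron 7, called 12 bases downstream (chr5:26451563-26451622, minus strand): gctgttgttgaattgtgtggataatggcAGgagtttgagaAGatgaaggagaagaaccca
The PSAH1 junction, 6 bases downstream, was called in the most comparisons. Its change was 0.666 in the triple mutant relative to WT under red light (FDR 9.93e-146), 0.545 in darkness (FDR 3.51e-34) and 0.490 in the triple mutant against sfps-2rrc1-3 under red light (FDR 9.11e-105, each from the authors' deposited tables). The FNR1 junction 3 bases downstream changed by 0.795 in the triple mutant in red light (FDR 7.62e-59), the largest junction change in the 36 genes, in the authors' deposited table. The FNR1 junction 12 bases downstream changed by 0.461 with light in swap1, and the junction 10 bases downstream in intron 5 by 0.544 in swap1 against WT in red light and by 0.544 with light in WT in the authors' deposited tables. The PSBR junction, 18 bases downstream, changed by 0.340 in the triple mutant against swap1-1sfps-2 under red light (the authors' deposited table). The sixth lies in intron 4 of 5 of CURT1B, 163 bases upstream of the annotated acceptor, and changed by 0.325 in darkness in the triple mutant against sfps-2rrc1-3 and against WT in the authors' deposited tables. The shifts of PSAH1, PSBR and FNR1 intron 7 are multiples of 3 and keep the reading frame, and the shifts of FNR1 intron 5 and CURT1B would end it early.

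The other 3 junction regions skip an exon or lie inside one. Junctions that skip exon 2 of 3 of PSAE2 (66 bases, light in swap1, change 0.338) and exon 6 of 9 of FNR1 (78 bases, triple mutant relative to WT under red light, change 0.511) leave the frame open in each case (the authors' deposited tables). In PSBY, a small membrane subunit of photosystem II with a single exon in RefSeq, a junction that removes 140 bases from GT to AG changed by 0.378 in the triple mutant against sfps-2rrc1-3 under red light in the authors' deposited table. Several of these genes overlap a neighbour on the opposite strand, with 788 shared bases for PSAH1 and 191 for FNR1, and whether reads were counted by strand is not given in the sources used here. None of the 31 called regions lies inside such a neighbour.

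Of 22 assembly factors and regulators, 17 rose with light in swap1 and 13 in WT and 0 fell, while 6 were lower in swap1 in darkness and, in red light, 2 were higher and 1 lower in the authors' deposited tables. HCF173, which promotes translation of psbA, had the largest light response of this list, 3.03 ± 0.06 in swap1 and 2.75 ± 0.11 in WT, and was lower in swap1 in darkness (-0.85 ± 0.11) in the authors' deposited tables. Of 25 further carriers, cyclic flow components and NDH subunits, 18 rose and 2 fell with light in swap1, and 17 rose and 0 fell in WT in the authors' deposited tables. In swap1 against WT 1 of these was higher and 4 lower in red light, and 0 were higher and 4 lower in darkness in the authors' deposited tables. PNSL1, a lumenal NDH subunit, was lower in swap1 in red light (-1.21 ± 0.09) and in darkness (-1.72 ± 0.17) in the authors' deposited tables.

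The chloroplast-encoded partners, include the core subunits to which the nuclear ones bind. Of 32 such genes, 7 rose and 1 fell with light in swap1, and 1 rose and 6 fell in WT in the authors' deposited tables. In swap1 against WT 6 were higher and 2 lower in red light, and 0 were higher and 8 lower in darkness in the authors' deposited tables. The 5 genes psaI, petL, psbM, petG and psbT rose with light in swap1 and fell with light in WT. For psaI, a small subunit of photosystem I, the log2 fold changes were 3.30 ± 0.54 in swap1 and -2.89 ± 0.58 in WT in the authors' deposited tables, a difference of 6.19 ± 0.79 (adjusted p = 4.06e-13 in the same test of light effects). For petG, a small subunit of cytochrome b6f, they were 1.29 ± 0.10 in swap1 and -1.05 ± 0.11 in WT in the authors' deposited tables, a difference of 2.35 ± 0.15 (adjusted p = 1.72e-53). These 5 genes are 96 to 114 bases long in RefSeq, shorter than a read. psbA, the D1 core protein gene of photosystem II at 1062 bases, rose by 1.17 ± 0.08 in swap1 and by 0.65 ± 0.09 in WT in the authors' deposited tables. Whether gene length or the recovery of short RNA has a part in these values was not tested.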

How the data were processed

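RNA was sequenced from whole seedlings, and the analysis started from the authors' deposited result tables. DESeq2, HTSeq, STAR, FastQC and the build TAIR10 are named in the submitters' processing notes and ASpli in the design text, without versions in what was used here. Per the file headers, the 4 expression tables hold only called transcripts, with the authors' base mean (a normalised count signal), log2 fold change, standard error, p-value and adjusted p-value, and the 12 splicing tables hold the authors' called regions, with log2 fold change and FDR for bins and an unsigned change score (0 to 1) for junctions. The deposited genotype columns of expression run WT over swap1 and were turned, as the 4 tables closed as a loop (median error 0.00302 log2 units over 535 transcripts, next best choice of signs 0.628). Bin values were read as the second group over the first. In the 4 comparisons of swap1 and WT they closed as a loop (median error 0.001 log2 units over 49 bins). There, 80% to 84.6% of exon bins moved as the called transcripts holding them. Bin direction was not checked in the other comparisons. A group level is 2 × base mean × fold / (1 + fold) for the numerator and the remainder for the other group. A gene is given by its transcript of highest base mean. At least 28332 transcripts were tested per comparison, from ranks and adjusted p-values. Sequences come from RefSeq TAIR10.1, in which 98.1% of 16974 called intron bins equal an annotated intron. Python 3.11.15, scipy 1.17.1 and Biopython 1.88 were used. The code of the test of differences was run on simulated normal differences drawn with the deposited standard errors. Such data cannot show how the test behaves with standard errors estimated from 3 libraries or after selection of called transcripts. The genes, lists, motifs and tests were chosen with earlier results of these data known. Genes described in full were those in paralogue pairs, at the extremes of the WT light response by complex, called between genotypes, differing in light effect or with a called splicing region. Gene ontology tables were not used.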

Additional observations from a re-analysis of the deposited data

Results flagged for a closer look

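The light effect differed between swap1 and WT for 19 genes by the test of the difference itself, each with the larger effect in swap1. The difference in log2 units (swap1 minus WT) was 0.91 for PSBQ2, 0.83 for PSAK, 0.77 for PETE2, 0.70 for PSBTN, 0.69 for PSAH2 and 0.68 for PSAE1. It was 0.60 for PSBQ1, 0.59 for PSBX, 0.59 for PSAH1, 0.56 for ATPD, 0.52 for PSB27 and 0.52 for PSBR. It was 0.47 for FD2, 0.47 for FNR1, 0.45 for PSBY, 0.44 for PSBO2, 0.42 for PSBO1, 0.42 for PSBW and 0.33 for ATPC1. PSB27 is an assembly and repair factor of photosystem II, and PSBW, PSBX and PSBTN are small subunits of that complex. Values of PSBQ1 and FNR1 stand for transcripts with 3 and 5 bases of their own.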

How the results depend on the processing

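No paired analysis was possible because the files hold no values of single libraries, and for the same reason no fit without a replicate was run. Of 65 alternative values for 23 results, 46 stayed within 1.5 times the reported count and 19 were lower. Most alternatives were stricter settings under which a count could only stay or fall, and a change of direction was not assessed. A log2 fold change of 1 or more in size left 3 genes lower in swap1 in darkness (PSBQ2, PSAO and PSBO2) and 1 in red light (PSAO). For the difference of light effects, requiring 0.5 log2 units left 12 genes and standard errors multiplied by 1.5 left 5 (PETE2, PSAK, PSAE1, PSAH2 and PSBQ2). The swap1 effect that differed between red light and darkness (PSBO2) was left in 0 genes by a threshold of 0.01, by a size of 0.5 and by the larger standard errors. For genes with a splicing region, bins alone left 1 for light in swap1, and 0 for swap1 against WT in red light, for swap1 added in red light, for swap1 added in darkness and for rrc1 added in red light. An FDR of at most 0.01 left 1 for swap1 against WT in darkness. A bin change of at least 1, with all junction calls kept, left 0 for swap1 in darkness, 1 for light in WT, 2 for the triple mutant in red light and 3 in darkness. The only bin that reached this size was PSBO2 intron 2 in the triple mutant in darkness (1.02), and junctions account for the rest. Without the 50 bases after the start, a G-box was found in 7 genes and an I-box in 9.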
